A study of Mus musculus with 13 samples.

Results

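The prostate luminal lineage and its secretions were followed through 6 genes: Acpp, Tmprss2, Psca, Hoxb13, Foxa1 and Pbsn. The members were taken by name, as every probe set whose platform annotation gives one of these symbols and no other, and they are 6 of 18193 genes measured. They had 11 probe sets in all, 3 for Acpp, 4 for Tmprss2 and 1 for each of the others. Where a gene had several, the one with the highest mean over all arrays stood for the gene, and the others are given beside it.

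The cells were cultured progenitor/stem cells of the adult prostate, isolated from wild-type B1/6; 127/SVEV mice 10 wk old and used at passage 22. They received 100 nM 1,25-dihydroxyvitamin D3 (1,25D), the hormonal form of vitamin D, or the vehicle, ethanol at 0.1%, once for 6 h or with renewal every 24 h over 48 h. At 6 h there were 3 arrays of vehicle and 3 of 1,25D, and at 48 h 3 of vehicle and 4 of 1,25D. One Affymetrix mouse array was hybridised per RNA. All groups share the long-passaged wild-type culture. Whether replicates came from different cultures is not stated in the labels, so p-values measure only the spread between these arrays, which may be technical.

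In the prostate, luminal cells line the ducts and release their products into the lumen, under the control of the androgen receptor and of factors such as Foxa1, a forkhead protein that opens chromatin for that receptor, and Hoxb13, a homeobox protein of the posterior body axis that stays expressed in the adult gland. Acpp encodes prostatic acid phosphatase (also called Acp3), Pbsn encodes probasin, an androgen-induced lipocalin of rodent prostate secretion, Tmprss2 encodes a membrane-anchored serine protease of the apical surface, and Psca encodes a GPI-anchored protein of the Ly6 family named for its presence on prostate cells. 1,25D acts through the vitamin D receptor, which binds DNA together with the retinoid X receptor.

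Values are deposited signals on a log2 scale, which ran from 3.05 to 14.45 over the 13 arrays, so a difference of 1 is a doubling. A gene was called changed at an adjusted p under 0.05 in limma (Benjamini-Hochberg over 45037 probe sets), and "rose" and "fell" are used only of such calls. The check gene Cyp24a1, the enzyme that degrades 1,25D, averaged 4.53 ± 0.22 (SD, n = 3) in vehicle and 13.03 ± 0.20 (SD, n = 3) with 1,25D at 6 h. Keratins of luminal and of basal cells were both very bright: Krt8 and Krt18 averaged 13.60 and 13.52 over all arrays, and Krt5 and Krt14 averaged 12.66 and 13.99, with the basal regulator Trp63 at 9.01. Vehicle 6 h replicate 1 and 1,25D 48 h replicate 4 stand apart from the other arrays, with interquartile ranges of 3.03 and 2.95 against 3.27 to 3.46, so results that lean on them are also given without them. Each time has its own arrays, so hours in culture cannot be told apart from any day of processing or from the renewal every 24 h.

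The members lay at very different signals, which set what could be measured. By mean signal over all arrays, Acpp stood at the 91.3rd percentile of all probe sets tested, Tmprss2 at 80.4, Psca at 77.1, Foxa1 at 63.2, Hoxb13 at 31.1 and Pbsn at 5.91. Probe sets differ in brightness, so these places do not rank the transcripts against each other. Detection calls were not used, and a low place does not show that a gene was silent. Acpp, Tmprss2 and Psca were each called in at least 1 comparison, and Hoxb13, Foxa1 and Pbsn in none.

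**Figure D1:**
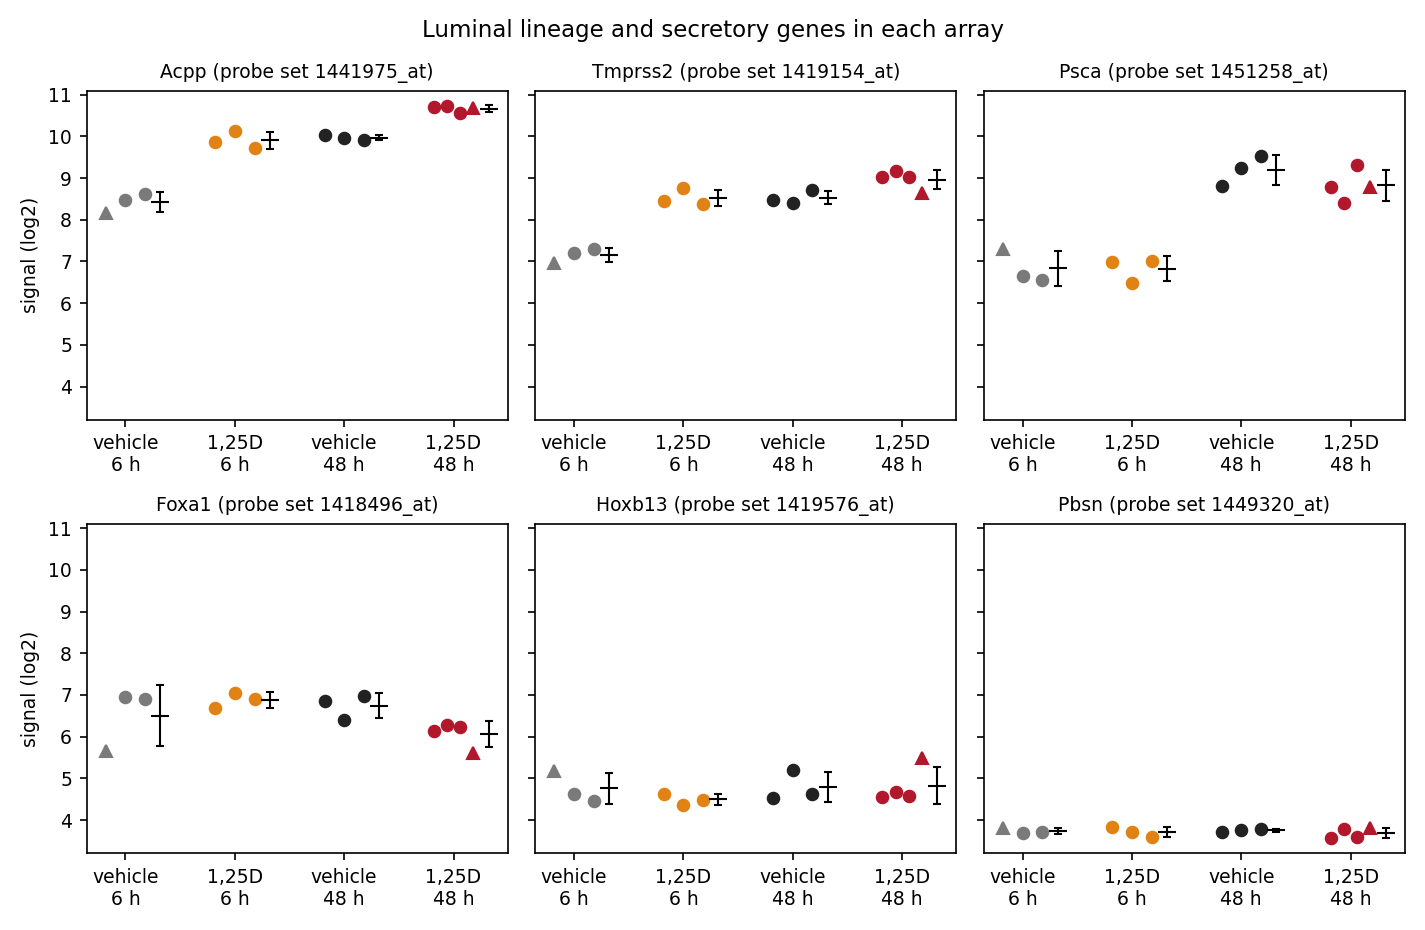
Log2 signal (vertical axes) of the main probe set of each of the 6 genes on all 13 arrays, by group; bars give the mean ± SD and triangles are the 2 arrays that stand apart. Acpp and Tmprss2 are lowest in vehicle at 6 h, Psca separates 6 h from 48 h, and Pbsn stays between 3.57 and 3.84.

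After 6 h of 1,25D, 2 of the 6 genes rose, Acpp and Tmprss2, and none fell. Over all genes 0.687% rose and 0.165% fell in that comparison. The median change of the 6 genes was 0.18, beside -0.02 over all genes. Acpp and Tmprss2 were also the members whose treated and vehicle arrays did not overlap at 6 h, a separation shown by 10.2% of all genes.

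Acpp, the phosphatase long used as a prostate marker, read (main probe set 1441975_at) 8.16, 8.48 and 8.62 in the vehicle arrays at 6 h. With 1,25D it read 9.86, 10.13 and 9.73. Every treated array lay more than 1 log2 unit above every vehicle array. The means were 8.42 ± 0.23 (SD, n = 3) and 9.91 ± 0.21 (SD, n = 3), a rise of 1.48 on the log2 scale (SE 0.13, 95% interval 1.20 to 1.77) or 2.80-fold, with a limma adjusted p of 5.7e-05. Of the 18193 genes, 31 had a larger rise at 6 h. The exact two-sided permutation p was 0.1, the smallest that 3 against 3 arrays allow.

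The other 2 probe sets of Acpp moved the same way at 6 h. On 1419832_s_at the vehicle arrays read 7.49, 7.68 and 7.62 and the treated arrays 9.10, 9.0 and 9.12, a rise of 1.48 (limma adjusted p 3.11e-05). On 1453943_a_at they read 5.64, 6.53 and 6.43 against 8.27, 7.82 and 8.42, a rise of 1.97 (limma adjusted p 0.00118). The groups did not overlap on any of the 3 probe sets.

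Tmprss2, a protease that sits at the luminal cell surface and is a classical androgen-induced gene, read (main probe set 1419154_at) 6.96, 7.20 and 7.29 in vehicle at 6 h. With 1,25D it read 8.45, 8.75 and 8.37. Again the lowest treated array was above the highest vehicle array. The means were 7.15 ± 0.17 (SD, n = 3) and 8.52 ± 0.20 (SD, n = 3), a rise of 1.37 (SE 0.16, 95% interval 1.02 to 1.72) or 2.58-fold, with a limma adjusted p of 0.000709 and an exact permutation p of 0.1. A larger rise at 6 h was found for 47 genes.

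Of the other 3 Tmprss2 probe sets, 1458347_s_at read 6.14, 6.85 and 7.44 in vehicle against 8.56, 8.67 and 8.52 with 1,25D at 6 h, a rise of 1.77 (limma adjusted p 0.0199). On 1449369_at the readings were 6.98, 7.11 and 6.83 against 7.84, 7.75 and 8.12, a rise of 0.93 (limma adjusted p 0.0287). The fourth, 1459510_at, is dim, at the 29.9th percentile, and read 4.40, 4.65 and 4.49 against 4.75, 4.94 and 4.70, a difference of 0.28 (limma adjusted p 0.908). Treated and vehicle arrays did not overlap on any of the 4 probe sets, and the 3 brighter ones were called.

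The remaining 4 genes were not called at 6 h. Psca differed by -0.01 (95% interval -0.58 to 0.56, limma adjusted p 0.998) and Pbsn by -0.01 (95% interval -0.20 to 0.17). Foxa1 differed by 0.38 (limma adjusted p 0.971) and Hoxb13 by -0.26 (limma adjusted p 0.971). Foxa1 (1418496_at) read 5.65, 6.96 and 6.90 in vehicle, the lowest on the array that stands apart, and 6.68, 7.05 and 6.91 with 1,25D. Without the 2 arrays that stand apart its difference was -0.05 (limma adjusted p 0.958).

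**Figure D2:**
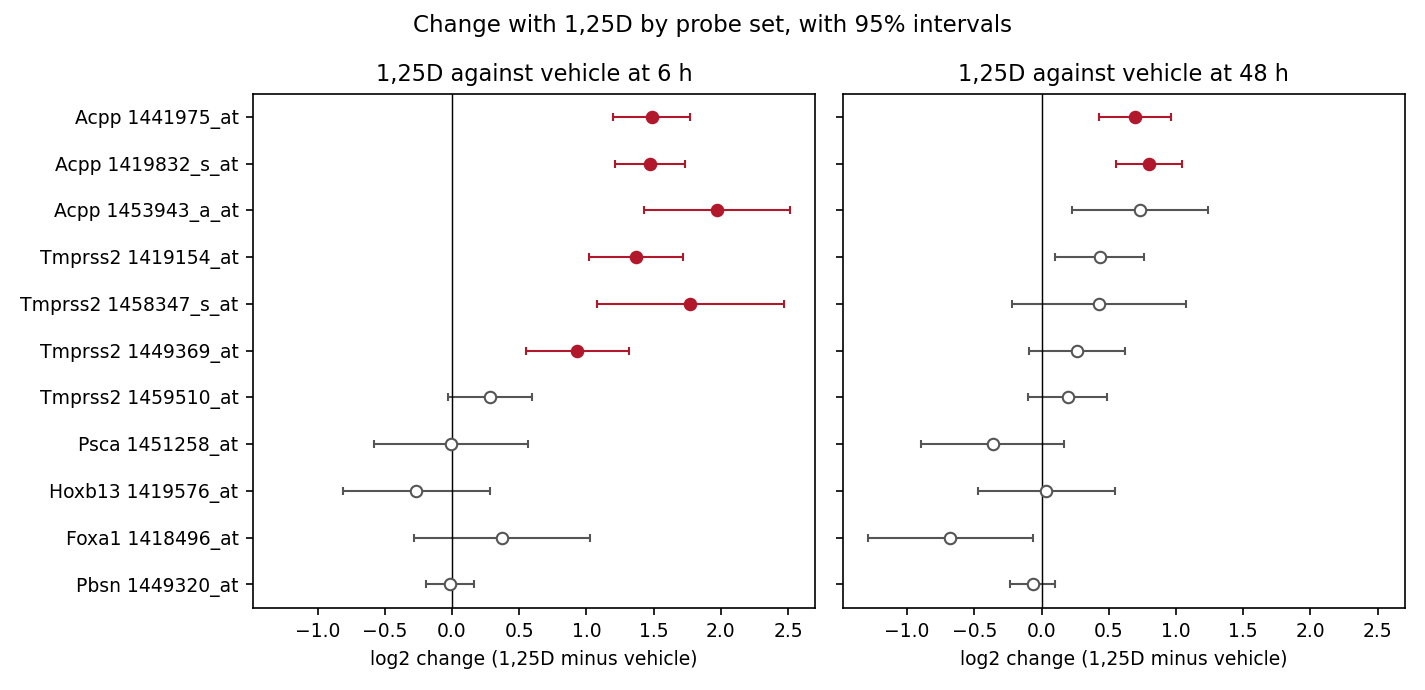
Log2 difference, 1,25D minus vehicle (horizontal axis), of all 11 probe sets of the 6 genes at 6 h and at 48 h, with 95% intervals; filled red points were called at an adjusted p under 0.05 and open grey points were not. At 6 h all 3 Acpp probe sets and 3 of 4 Tmprss2 probe sets are called, and at 48 h 2 Acpp probe sets are called, at 0.70 and 0.80.

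After 48 h of 1,25D, 1 of the 6 genes rose, Acpp, and none fell, where 1.43% of all genes rose and 0.951% fell. The median change of the 6 was -0.02, beside -0.0024 over all genes. Acpp and Foxa1 had treated and vehicle arrays that did not overlap, which 12.6% of all genes showed.

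Acpp read 10.02, 9.97 and 9.90 in vehicle at 48 h and 10.70, 10.72, 10.55 and 10.68 with 1,25D. The arrays of each group were tightly bunched, at 9.97 ± 0.06 (SD, n = 3) and 10.66 ± 0.08 (SD, n = 4), with a clear gap between them. The rise was 0.70 (SE 0.12, 95% interval 0.43 to 0.96) or 1.62-fold, with a limma adjusted p of 0.0098 and an exact permutation p of 0.0571, the smallest that 3 against 4 arrays allow. The call ends without vehicle 48 h replicate 2 (limma adjusted p 0.0533) or replicate 3 (limma adjusted p 0.0642). On 1419832_s_at the rise was 0.80 (limma adjusted p 0.00165), and on 1453943_a_at the difference was 0.73 (limma adjusted p 0.271), or 0.87 (limma adjusted p 0.0137) without the 2 arrays that stand apart.

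Tmprss2 read 8.47, 8.40 and 8.70 in vehicle at 48 h and 9.03, 9.16, 9.02 and 8.63 with 1,25D. Of the 4 treated arrays 3 lay above all vehicle arrays, and the fourth, replicate 4, which stands apart, lay among them. The difference was 0.43 (SE 0.15, 95% interval 0.10 to 0.76) with a limma adjusted p of 0.375 and an exact permutation p of 0.114. It was 0.54 (limma adjusted p 0.0572) without the 2 arrays that stand apart, and 0.45 with arrays weighted by their quality, where it was called (limma adjusted p 0.0301). The other 3 probe sets of Tmprss2 differed by 0.43, 0.26 and 0.19 at 48 h, from the brightest to the dimmest, and none was called.

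Foxa1 read 6.86, 6.40 and 6.96 in vehicle at 48 h and 6.12, 6.27, 6.24 and 5.61 with 1,25D. All 4 treated arrays were below all 3 vehicle arrays, with the lowest value on the replicate that stands apart. The difference was -0.68 (SE 0.28, 95% interval -1.29 to -0.07), with an unadjusted limma p of 0.0325, an adjusted p of 0.599 and an exact permutation p of 0.0571. Without the 2 arrays that stand apart it was -0.53 (limma adjusted p 0.134), and with quality weights -0.65, where it was called (limma adjusted p 0.037).

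Psca (1451258_at) read 8.81, 9.23 and 9.53 in vehicle at 48 h and 8.79, 8.40, 9.32 and 8.78 with 1,25D, so the groups overlapped. The difference of -0.36 had a 95% interval from -0.90 to 0.17. Hoxb13 differed by 0.03 (limma adjusted p 1), and Pbsn by -0.07 (95% interval -0.24 to 0.10).

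The 48 h response was compared with the 6 h response by an interaction contrast, which called 0 of the 6 genes in limma, where 0.632% of all genes were called in either direction. At an unadjusted p under 0.05 there were 3, Acpp, Tmprss2 and Foxa1. Here and below, counts at that unadjusted threshold are given without a share over all genes, so they are descriptions only. For Acpp the contrast was -0.79 (SE 0.18, limma adjusted p 0.121), and for Tmprss2 it was -0.94 (SE 0.22, limma adjusted p 0.144). Foxa1 had the largest value, -1.05 (SE 0.42, unadjusted p 0.0246, limma adjusted p 0.736), which was -0.48 (limma adjusted p 0.495) without the 2 arrays that stand apart. With the mean of all probe sets of a gene, the difference for Acpp was -0.90 and was called, and with quality weights that for Tmprss2 was -0.84 and was called.

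The next comparison sets vehicle at 48 h against vehicle at 6 h, without the hormone. The vehicle was renewed only in the 48 h cultures, so time and renewal cannot be told apart. From vehicle 6 h to vehicle 48 h, 3 of the 6 genes rose, Acpp, Tmprss2 and Psca, and none fell; 9.84% of all genes rose and 8.75% fell. These 3 genes also had arrays that did not overlap, as did 31% of all genes. The median change of the 6 genes was 0.80, beside -0.03 over all genes. The 48 h comparison and this one share the vehicle 48 h arrays, and the 6 h comparison shares the vehicle 6 h arrays with it.

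Psca had the largest rise of the 6 with time in vehicle. Its vehicle arrays read 7.31, 6.65 and 6.55 at 6 h and, as given above, between 8.81 and 9.53 at 48 h. The mean went from 6.83 ± 0.41 (SD, n = 3) to 9.19 ± 0.36 (SD, n = 3), a rise of 2.36 (SE 0.27) or 5.12-fold, with a limma adjusted p of 4.54e-05. In 1,25D the arrays read 6.99, 6.48 and 7.01 at 6 h, and the rise to 48 h was 2.00 or 4.00-fold (limma adjusted p 6.64e-05). A larger rise in vehicle was found for 69 genes.

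Acpp rose by 1.54 (SE 0.13) or 2.92-fold between the vehicle times (limma adjusted p 4.48e-06), and Tmprss2 by 1.37 or 2.59-fold (limma adjusted p 7.26e-05). A further 2 Tmprss2 probe sets rose with time in vehicle, by 1.59 and 1.09, and the dim one differed by 0.07. The 6 h treated mean of Acpp, 9.91, was near the 48 h vehicle mean of 9.97, and for Tmprss2 the same means were 8.52 and 8.53. The other Acpp probe sets rose less with time in vehicle, by 0.46 on 1419832_s_at (limma adjusted p 0.0221) and 0.97 on 1453943_a_at (limma adjusted p 0.0204). On those 2 probe sets the 6 h treated arrays were above the 48 h vehicle arrays, so the near equality of those means holds for the main probe set and not for the other 2. The exact permutation p for Acpp, Tmprss2 and Psca over time was 0.1.

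In the treated cells, 2 of the 6 genes rose from 6 h to 48 h, Acpp and Psca, and none fell, where 10.9% of all genes rose and 12.5% fell. Arrays of 3 of the 6, Acpp, Psca and Foxa1, did not overlap, beside 33.8% of all genes. The median change was 0.38, beside 0.01 over all genes. Acpp rose by 0.76 on its main probe set (limma adjusted p 0.000621) but differed by -0.21 (limma adjusted p 0.276) and -0.27 (limma adjusted p 0.559) on the other 2, so this call rests on 1 probe set. Tmprss2 differed by 0.43 (limma adjusted p 0.0739), or 0.54 (limma adjusted p 0.00927) without the 2 arrays that stand apart. Foxa1 differed by -0.82 (limma adjusted p 0.0703), or -0.67 (limma adjusted p 0.00688) without them.

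Acpp and Tmprss2 followed each other across the arrays, with a Pearson r of 0.974 over 13 arrays, which fall into 4 groups and share treatment and time. Likeness over all 13 arrays was ranked with genes of predicted or clone-style names left out. The genes most like Acpp were Tgm2, a transglutaminase (r 0.988), Prelp, a leucine-rich matrix protein (r 0.976), and Tmprss2 itself. The genes most like Tmprss2 were Acpp, Insig2, a regulator of sterol synthesis (r 0.970), and Riok3, an atypical kinase (r 0.965). Those most like Psca were Apol7a (r 0.982), Maf1, a repressor of RNA polymerase III (r 0.978), and Mettl27 (r 0.978). Psca with Acpp gave 0.613. These likenesses are descriptions.

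**Figure D3:**
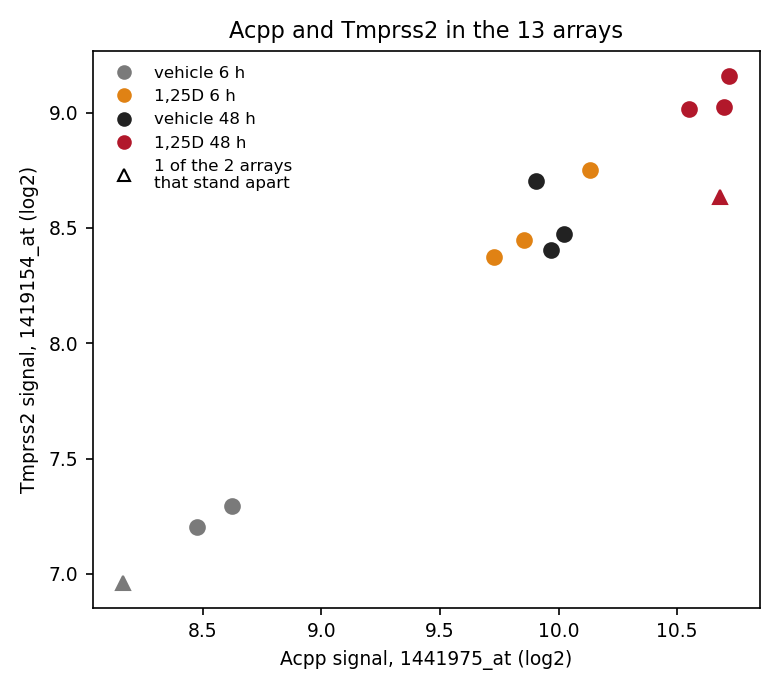
Tmprss2 signal against Acpp signal (both log2, main probe sets) on each of the 13 arrays, coloured by group, with triangles for the 2 arrays that stand apart. The vehicle 6 h arrays lie at the lower left, 1,25D 6 h and vehicle 48 h lie together in the middle, and 1,25D 48 h arrays reach the upper right.

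Because the main probe sets of Acpp and Tmprss2 moved together, the proximal promoters of both genes are shown. That of Pbsn, the classical androgen-driven promoter of the rodent prostate, is given for contrast. Each is the 250 bases before the RefSeq transcription start on GRCm38.p6, all on the minus strand and written 5′ to 3′: Acpp from chr9:104337723-104337972, Tmprss2 from chr16:97611196-97611445 and Pbsn from chrX:77853501-77853750. Capitals mark matches to any motif searched.
Acpp: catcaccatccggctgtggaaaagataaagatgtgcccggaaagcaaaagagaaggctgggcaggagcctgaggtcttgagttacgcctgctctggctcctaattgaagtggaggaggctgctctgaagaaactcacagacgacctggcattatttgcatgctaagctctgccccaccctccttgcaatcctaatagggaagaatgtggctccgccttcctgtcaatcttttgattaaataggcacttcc
Tmprss2: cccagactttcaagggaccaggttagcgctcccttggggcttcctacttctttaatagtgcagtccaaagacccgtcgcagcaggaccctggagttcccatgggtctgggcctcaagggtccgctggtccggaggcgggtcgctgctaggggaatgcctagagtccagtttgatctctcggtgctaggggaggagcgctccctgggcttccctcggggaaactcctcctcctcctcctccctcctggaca
Pbsn: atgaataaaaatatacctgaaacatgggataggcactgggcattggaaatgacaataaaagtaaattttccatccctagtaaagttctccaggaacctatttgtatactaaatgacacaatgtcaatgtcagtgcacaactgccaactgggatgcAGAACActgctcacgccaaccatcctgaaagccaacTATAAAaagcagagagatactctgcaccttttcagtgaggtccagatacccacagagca

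The motifs, searched on both strands, were the receptor hexamer AGGTCA with its variant AGTTCA, the variant GGTTCA and the variant GGGTCA, a pair of such hexamers in the same direction 3 bases apart as the vitamin D receptor pairs with its partner, the androgen receptor core AGAACA, the forkhead core TGTTTAC and the TATA box TATAAA. Neither Acpp nor Tmprss2 held a match to any of them in this window. Pbsn held AGAACA at 95 to 90 bases and TATAAA at 59 to 54 bases before the start. The Foxa1 window (chr12:57546112-57546361) held GGGTCA at 211 to 206 bases and the forkhead core on the reverse strand at 141 to 135 bases before the start. Among 32817 promoter windows of this length, 38.6% held a receptor hexamer, 0.0396% the spaced pair, 16.1% AGAACA, 3.16% TGTTTAC and 12.4% TATAAA. GC content was 50.4% for Acpp, 61.6% for Tmprss2, 62% for Foxa1 and 41.2% for Pbsn, with a median of 52.4% over all windows. No match says only that these letters are not in these windows.

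Hoxb13 and Pbsn were the dimmest of the 6. Hoxb13 (1419576_at) read 5.18, 4.63 and 4.46 in vehicle and 4.63, 4.36 and 4.49 with 1,25D at 6 h, and 4.54, 5.19 and 4.63 against 4.56, 4.66, 4.58 and 5.48 at 48 h. The 3 highest readings, 5.48, 5.19 and 5.18, include both arrays that stand apart, and without those the 48 h difference was -0.19 (limma adjusted p 0.753). Pbsn (1449320_at), whose product is a hallmark of the intact mouse gland, ranged over 0.28 in all 13 arrays, from 3.57 to 3.84.

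**Figure D4:**
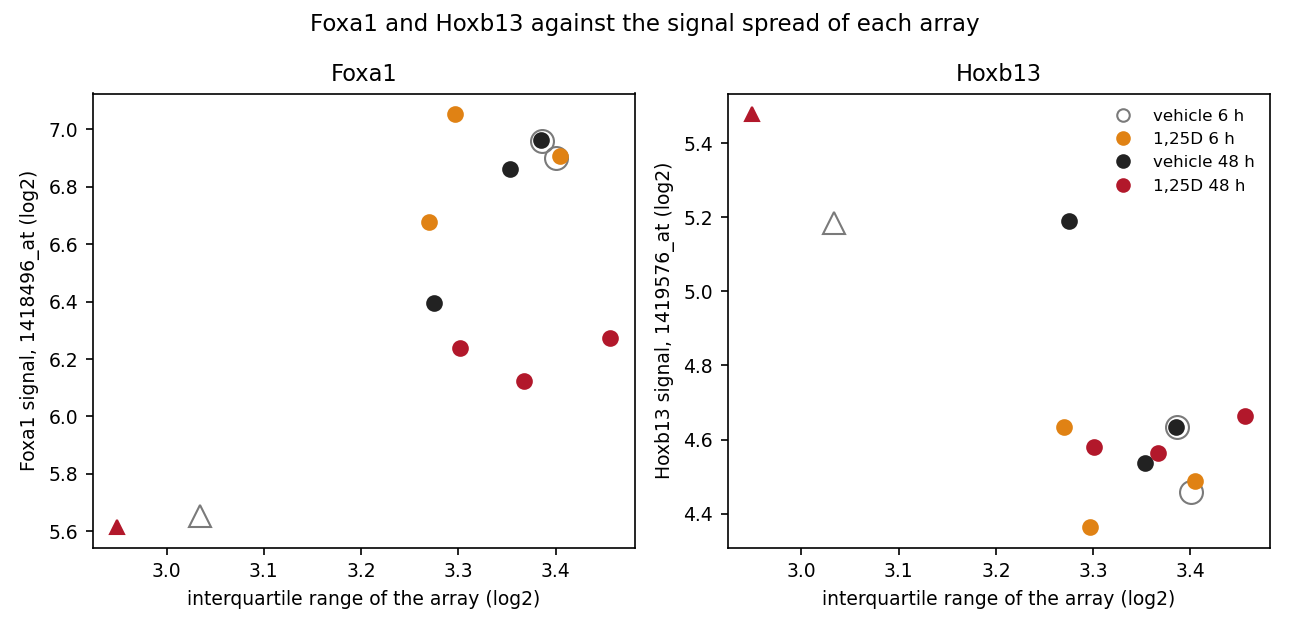
Foxa1 (left) and Hoxb13 (right) signal in log2 against the interquartile range of each array in log2; open circles are vehicle 6 h, filled circles the other groups, and triangles the 2 arrays that stand apart. Those 2 arrays, at interquartile ranges of 3.03 and 2.95, are the lowest for Foxa1 (5.65 and 5.61) and among the 3 highest for Hoxb13 (5.18 and 5.48).

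Genes with related roles were read from 4 lists, the luminal regulators, androgen receptor targets, mouse prostate secretory genes and simple epithelial genes, which held 69 measured genes without the 6 members. Over all genes 0.687% rose and 0.165% fell at 6 h, with a median of -0.02. Of the 69, 4 rose and none fell at 6 h, with a median of 0.01. These were Foxa2, a relative of Foxa1 (0.95, limma adjusted p 0.00155), Nupr1, a stress-induced chromatin protein (1.66), Cldn4, a tight junction protein (1.52), and Krt19 (0.80). Foxa2 averaged at the 84.0th percentile and differed by 0.49 at 48 h (limma adjusted p 0.0661). None of the other 17 androgen receptor targets was called at 6 h in limma, with 6 at an unadjusted p under 0.05; Tmprss2 is itself such a target.

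At 48 h 6 of the 69 rose and 7 fell, where 1.43% of all genes rose and 0.951% fell. The median was 0.0010 beside -0.0024 over all genes. Of the 17 androgen receptor targets 4 rose, led by Abcc4, a nucleotide and drug exporter (2.04), with Klk1b27 (0.97), Steap1 (0.85) and Steap2 (0.81). Steap4 (-1.40) and Ndrg1 (-0.56) fell. Klk1b27 is dim, at the 36.1st percentile. From 6 h to 48 h Abcc4 changed by -2.23 in vehicle, where it was called, and by -0.42 in 1,25D, where it was not. With 1,25D at 48 h 4 of 14 simple epithelial genes fell, Krt8 (-0.43), Krt18 (-0.34), Cldn3 (-0.47) and Cldn7 (-0.40), while Krt19 rose (0.58). Of 22 genes of the secretory list Gsdma rose (0.81) and Clu fell (-0.43). Among these genes, then, calls went both ways at 48 h while Acpp rose.

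Over time in vehicle 18 of the 69 rose and 4 fell, with a median of 0.07 beside -0.03 over all genes. Over all genes 9.84% rose and 8.75% fell in that comparison. All 4 that fell were among the 17 androgen receptor targets: Abcc4 (-2.23), Odc1 (-1.16), Fkbp5 (-1.06) and Steap1 (-0.91). Of the same 17, 3 rose, Steap4 (3.65), Ndrg1 (2.02) and Rhou (0.94). Of 19 genes of a basal cell list 4 rose, among them Trp63 (1.14, limma adjusted p 0.00376), and 3 fell. The secretory list gave 5 of 22, Pigr (2.86), Nupr1 (2.37), Clu (1.89), Mme (1.82) and Crabp1 (0.65), with none lower. Some genes on this list do not encode secreted products, such as Nupr1, named above as a chromatin protein. Msmb (0.04), Spink1 (0.02), Pate4 (-0.02) and Tgm4 (-0.13) were among those not called. The median change of this list was 0.09, and 13 of the 22 averaged below the 40th percentile of all probe sets tested. The luminal regulators gave Ehf (1.58), Elf3 (0.82), Sox9 (0.72) and Creb3l4 (0.98), of 16. The relatives of Psca in the Ly6 family gave 0 of 12 calls in limma at 6 h, also at an unadjusted p under 0.05, and at 48 h Lypd3 rose (0.98) and Cd59a fell (-0.88). Over time in vehicle 4 of the 12 rose, among them Ly6g6c (3.14) and Ly6d (3.09), and Plaur fell (-0.79).

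The relatives of Tmprss2, membrane serine proteases and their inhibitors, gave 0 of 14 calls in limma at 6 h, where Tmprss2 rose, with 1 at an unadjusted p under 0.05. At 48 h Tmprss11e alone rose (2.80). Over time in vehicle 7 of 14 rose, with Tmprss4 (1.89), Tmprss13 (1.47) and Prss22 (1.28) largest, and none fell. In that comparison 9.84% of all genes rose and 8.75% fell. The relatives of Acpp, acid and other phosphatases with the nucleotidase Nt5e, gave 0 of 7 calls in limma at 6 h and at 48 h. The count was also 0 at an unadjusted p under 0.05. The lipocalins related to Pbsn gave 0 of 9 at both times, with 1 at an unadjusted p under 0.05 each time. Over time in vehicle Alpl (1.23), Nt5e (0.81) and Acp6 (0.60) rose and Minpp1 (-0.52) fell, and Lcn2 was called among the lipocalins (0.41).

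Markers of other cells were set beside these results. At 6 h none of 54 genes of the stromal, immune, endothelial, neuroendocrine, urothelial and seminal vesicle lists was called in limma, with 2 at an unadjusted p under 0.05. The differences ran from -0.48 to 0.31. At 48 h, where 1.43% of all genes rose and 0.951% fell, 3 of 54 rose, Krt13 (1.26), Cd68 (1.23) and Ncam1 (0.88), and none fell. These were 1 gene of each list, and the list medians at 48 h were 0.05 for the urothelial, 0.10 for the immune and 0.06 for the neuroendocrine genes, beside -0.0024 over all genes. The summed linear signals of these lists, which weight bright genes most, were 684.7 to 787.5 in treated against 616.8 to 673.9 in vehicle arrays for the 9 urothelial genes, 581.1 to 724 against 480.4 to 496.2 for the 10 immune genes and 765.5 to 792.2 against 458.9 to 519.1 for the 7 neuroendocrine genes. The 14 stromal genes summed to 1802 to 2202 in treated and 2370 to 2807 in vehicle arrays at 48 h, with none called and a list median of 0.04. The brightest of the 14 was Vim, at the 96.3rd percentile of all probe sets tested, which differed by -0.55 (limma adjusted p 0.0565). Among the 19 basal genes, Jag1 fell at 6 h (-1.07) and Krt17 (0.78), Lama3 (0.88) and Lgals7 (-0.96) were called at 48 h. Whether changes in the mix of cells bear on the members was not tested, and in cultures read in bulk more cells of a type and more RNA per cell cannot be told apart.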

How the data were processed

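RNA of 13 samples was measured on 1 Affymetrix array each, and groups came from the sample titles. The authors deposited a table of log2 signals, and the submitters' processing notes name MAS5 without a version; of normalization nothing more is given in the sources used here. The table holds 45101 probe sets, a whole-genome content, whereas the design text names a smaller chip. Of these, 64 control sets were left out; 34945 had 1 gene symbol, 932 several and 9160 none.

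Values were used as given. limma 3.58.1 (R 4.3.3) fitted 4 group means over all arrays, with eBayes, an intensity trend, and Benjamini-Hochberg adjustment over 45037 probe sets. Permutation tests were exact and two-sided (scipy 1.17.1, Python 3.11.15), and figures used matplotlib 3.10.9. Promoter sequences came from the RefSeq table for GRCm38.p6, matched by symbol. On simulated data made from the real means, 72 of 100 changes of 1 were recovered at 6 h and 76 at 48 h, over 45037 probe sets.

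The members and lists were chosen with earlier results of these data known. Genes named from a list were up to 4 with the smallest p among those called, and further ones, named to complete a count, were chosen after their values were seen. Alternatives were other normalizations, offsets, trends, filters, weights, blocks and left-out arrays.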

Additional observations from a re-analysis of the deposited data

Results flagged for a closer look

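One array stood apart from the others of its group. Hoxb13 read 5.48 on 1,25D 48 h replicate 4, where the other 3 treated arrays read between 4.56 and 4.66, and the gap was 0.892 of the range of the group. This was 1 of 11 probe sets tested in that group of 4, and chance flags about 1 in 20 groups. The same array has the smallest interquartile range of all arrays, 2.95.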

How the results depend on the processing

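For the 6 genes in 5 comparisons, 717 of 764 values under 26 alternative settings kept their direction and their side of the threshold, 17 passed it newly, 3 lost it (Acpp at 48 h without vehicle 48 h replicate 2 or 3, and between treated times, 0.09, with the mean of all probe sets) and 27 changed sign; none of those 27 was past the threshold on either side. Acpp and Tmprss2 at 6 h were called in all 26, with changes of 1.33 to 1.64 and 1.07 to 1.44. The count of members called at 48 h was 0 to 1 when single arrays were left out (0 without vehicle 48 h replicate 2 or 3) and 3 with quality weights. For the difference it was 1 with quality weights and with the mean of all probe sets. Between the treated times it was 4 without the dimmest 40%, with quality weights, and without the 2 arrays that stand apart.

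Sign changes with quality weights were Psca 0.19 and Pbsn 0.032 at 6 h and Hoxb13 -0.10 at 48 h. Without the 2 arrays that stand apart they were Psca 0.23, Foxa1 -0.050 and Pbsn 0.020 at 6 h, Hoxb13 -0.19 at 48 h and -0.13 in the difference, and Foxa1 -0.19 over time in vehicle. Leaving out single arrays gave Psca -0.15 to 0.23, Foxa1 -0.050 to 0.60 and Pbsn -0.077 to 0.046 at 6 h, and Hoxb13 -0.19 to 0.24 at 48 h. It gave Foxa1 -0.19 to 0.46, Hoxb13 -0.17 to 0.24 and Pbsn -0.0037 to 0.057 over time in vehicle, and Pbsn -0.11 to 0.011 in the difference and -0.090 to 0.033 between treated times. The cause was not tested. Whether the replicate numbers pair the samples was not tested. Between vehicle and 1,25D arrays of the same number, deviations from group means correlated at 0.07 to 0.28 at 6 h and -0.53 to 0.39 at 48 h. As a block the numbers left 2 members called at 6 h and 1 at 48 h and turned Hoxb13 at 48 h to -0.19. Replicate 4 occurs only with 1,25D at 48 h, so the block fits that array by itself. A fit of only the groups compared has no value for the difference. The number of arrays limits what could be seen.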
